A study of Mus musculus with 18 samples.

Results

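Transcripts of 9 genes for secreted serum proteins of the visceral endoderm (Afp, Alb, Ttr, Apoa1, Apoa2, Apoa4, Apob, Fgb and Rbp4) were followed across 18 RNA-seq libraries of mouse cells. The genes were taken by name from both deposited count tables and are 9 of the 54429 gene names in the larger one. The libraries fall into 9 groups of 2. Cells of the first line carry FLAG-tagged EED of wildtype sequence, knocked in (called FLAG-WT here), and cells of the second carry the same tagged protein with the K19R substitution (K19R). Each line was sampled at day 0 as embryonic stem cells (mESCs) in leukemia inhibitory factor (LIF) with inhibitors of MEK and GSK3 (2i), and at days 2, 6 and 10 as embryoid bodies, suspended aggregates that differentiate in medium lacking LIF and 2i. The remaining group is wildtype mESCs, for which no knock-in is named, in LIF without 2i. Both knock-in lines therefore share the FLAG tag and the culture scheme, and the sources used here do not say how many clones stand behind each line, nor how the wildtype mESCs relate to them. EED belongs to the core of Polycomb repressive complex 2, the enzyme that places methyl groups on histone H3 at repressed genes. The series' title names acetylation of EED as its subject, and a lysine changed to arginine cannot carry that mark.

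The visceral endoderm is an extraembryonic epithelium that surrounds the early mouse embryo and that also forms on the outside of embryoid bodies. Before there is a liver, it makes many of the proteins that hepatocytes later release into blood: carriers of lipid, retinol and thyroid hormone, clotting factors and alpha-fetoprotein. GATA, HNF4, HNF1, FOXA and SOX17 family factors are known to act on such genes in endoderm and liver. Among the members, Afp and Alb are neighbouring genes of the albumin family, Ttr and Rbp4 form the carrier complex of retinol, Apob, Apoa1, Apoa2 and Apoa4 are lipoprotein components, and Fgb is the beta chain of fibrinogen.

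Promoters were looked up in RefSeq (GRCm38.p6), where 8 of the 9 members had an entry (10 windows). Ttr had none. The 250 bases before the first RefSeq start are printed, 5′ to 3′ on the gene's strand, for Afp and Alb, the members with the most and the fewest counts, and for Fgb, whose pattern lay closest to that of the other members. Capitals mark matches to 6 short motifs searched on both strands: an HNF1 half-site GTTAAT, a FOXA core TGTTTNC, an HNF4 core CAAAGNNCA, a C/EBP site TTGCNNAA, a GATA site AGATAA and a TATA box TATAAA. No match overlapped another in these windows, which lie at chr5:90490464-90490713 (+ strand, Afp), chr5:90460620-90460869 (+ strand, Alb) and chr3:83049864-83050113 (- strand, Fgb).
Afp: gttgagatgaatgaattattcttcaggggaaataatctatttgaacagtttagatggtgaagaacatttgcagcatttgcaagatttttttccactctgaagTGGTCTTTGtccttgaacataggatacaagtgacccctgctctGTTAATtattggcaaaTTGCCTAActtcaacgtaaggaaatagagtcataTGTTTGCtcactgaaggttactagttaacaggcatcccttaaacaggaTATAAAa
Alb: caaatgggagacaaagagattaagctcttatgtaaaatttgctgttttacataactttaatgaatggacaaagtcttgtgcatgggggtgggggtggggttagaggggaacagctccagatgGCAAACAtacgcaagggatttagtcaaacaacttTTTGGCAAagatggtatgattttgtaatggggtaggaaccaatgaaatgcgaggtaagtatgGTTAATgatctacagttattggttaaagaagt
Fgb: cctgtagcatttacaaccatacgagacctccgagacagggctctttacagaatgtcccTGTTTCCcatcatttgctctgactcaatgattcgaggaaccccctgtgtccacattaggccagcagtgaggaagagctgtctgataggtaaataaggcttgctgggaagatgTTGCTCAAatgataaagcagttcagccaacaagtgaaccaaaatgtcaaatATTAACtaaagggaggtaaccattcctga

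The HNF1 letters stood in the windows of Afp, Alb and Fgb, and in 6.43% of all 32851 promoter windows of that length. The FOXA letters stood in those of Afp, Alb, Apoa1, Apoa2, Apob, Fgb and Rbp4 (17.8% of all windows). The HNF4 letters were found for Afp, Apoa4 and Apob (5.49%), and the C/EBP letters for Afp, Alb, Apoa2, Apob, Fgb and Rbp4 (9.56%). The TATA letters were found for Afp, Apoa2, Apob and Rbp4 (12.4%). Apoa2 and Rbp4 had 2 windows each, whereas the percentages are per window. Counted by window, the letters stood in 3 (HNF1), 7 (FOXA), 3 (HNF4), 6 (C/EBP) and 4 (TATA) of the 10 member windows. The GATA letters, searched only as AGATAA, were in 0 of the 10 member windows and in 9.99% of all, and other spellings of a GATA site were not searched. The Alb window thus held 3 of the motifs found in those of Afp and Fgb. These matches describe letters, and no binding was measured here.

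Library totals lay between 20158077 and 28917558 counts in the 16 libraries of the knock-in lines, and the wildtype mESC libraries held 14190166 and 37375083. All 9 members passed the filter on low counts. Nothing in the labels ties the 2 libraries of a group to separate cultures. The p-values therefore reflect the spread of these samples alone, and that spread may be technical. In bulk RNA, more cells of a type and more transcript per cell cannot be told apart. The labels name no cell type within the embryoid bodies. Of 10 markers of visceral endoderm uptake and signalling (among them Amn and Cubn, the receptor that takes up vitamin carriers), none was at 0 in any FLAG-EED library, and their summed level was 11327 and 11717 CPM (the library-scaled count of edgeR, with TMM factors) in FLAG-WT at day 6. Of 10 mature hepatocyte enzymes, 6 did not pass the filter, with a highest count in any library between 1 (Cyp3a11 and Cyp7a1) and 20 (Tdo2). The 4 that passed reached 27 (Pck1), 56 (Tat), 125 (Cps1) and 9454 counts (Ass1, which many cell types express). Parietal endoderm markers, a list led by basement membrane genes, summed to 2295 and 2345 CPM in FLAG-WT at day 0 and to 25080 and 25847 at day 6. Cell types within the embryoid bodies were not measured apart.

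Replicate 2 of FLAG-WT at day 0 stands apart from its partner in the members. Of the 9, 8 were at least 2-fold higher in it than in replicate 1, with a median ratio of 20.3, against 2.52% of all genes tested. The 2 measures differ: ratios of the members and lists are of plain CPM, for genes with more than 3 counts in either library. The share of all genes is from log2 CPM with a prior count of 2, which shrinks ratios of low counts. The largest ratio was that of Ttr (72.5), Afp had 1391 counts in replicate 2 against 43 in replicate 1, and Alb did not share the excess (9 against 8 counts). Pluripotency markers showed no such difference (0 of 5 genes, median ratio 0.978), whereas 11 of 23 other serum protein genes and 5 of 10 visceral endoderm markers did. Leaving Alb aside, the members stood in that library at 0.231% (Rbp4) to 0.864% (Afp) of their mean level in FLAG-WT at day 6. Each result on a member that rests on day 0 of FLAG-WT is given below with and without that library. Its disagreement with its partner also widens the fitted spread of the members in every comparison of the joint fit, so calls at later days are given both ways where they differ.

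The members were scarce at day 2 and abundant by day 6 in both lines. Their summed share of raw library totals was lower in K19R, at day 10 through Afp on that scale. In FLAG-WT they took 0.0142% ± 7.06e-06 (SD, n = 2) of all counts at day 2, 1.61% ± 0.0476 at day 6 and 2.78% ± 0.0202 at day 10. In K19R they took 0.00244% ± 0.000224 at day 2, 0.62% ± 0.0558 at day 6 and 2.05% ± 0.0722 at day 10. Afp alone took 1.82% of counts in FLAG-WT and 1.04% in K19R at day 10. The mean share of the other members together was then not lower in K19R. That depends on the scale: in TMM-scaled CPM the sum of the other members was lower in K19R as well. By the test below, Rbp4, Apoa2, Apoa4 and Fgb were also lower at day 10, Ttr was higher, and the rest did not pass. Changes and differences below were tested with edgeR's quasi-likelihood test in a fit of all 16 knock-in libraries, with Benjamini-Hochberg adjustment over 19092 genes and a threshold of 0.05 on the adjusted p. A difference is K19R minus FLAG-WT on the log2 scale, with its SE.

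**Figure D1:**
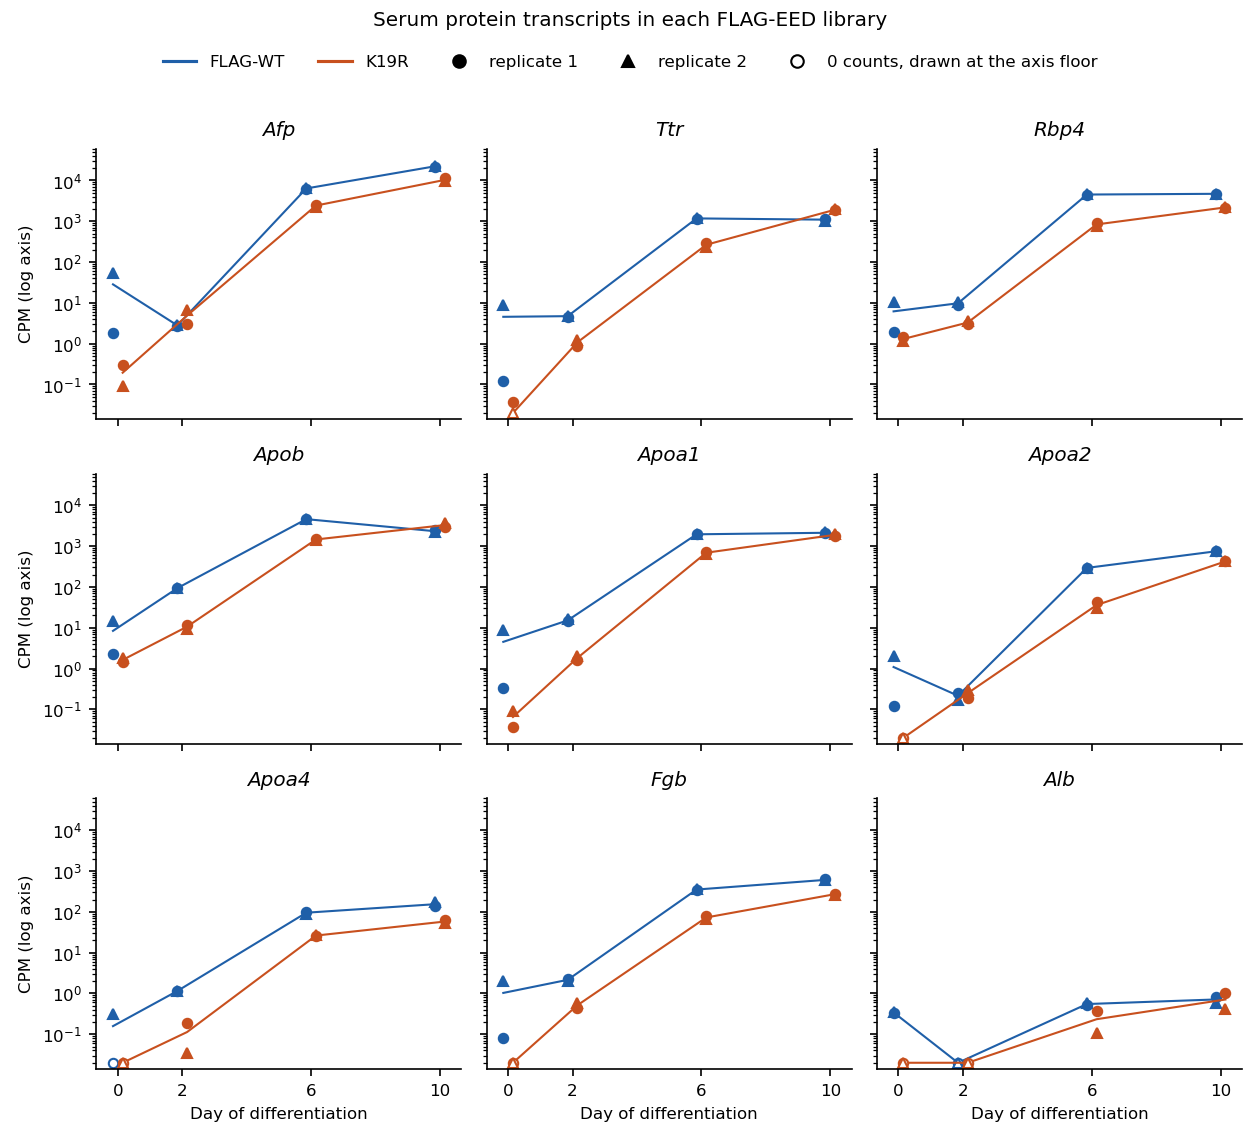
Level of each member in each FLAG-EED library, in CPM on a log axis, against the day of differentiation. Circles are replicate 1, triangles replicate 2, lines join the means, and open symbols at the floor stand for 0 counts. The blue triangle at day 0 (55 CPM for Afp) stands at least 2-fold above its partner in 8 of the 9 panels, and the lines cross between days 6 and 10 for Ttr and Apob.

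Afp encodes alpha-fetoprotein, the main serum protein of the fetus, and was the most abundant member at day 10. In FLAG-WT it measured 2.76 and 2.83 CPM at day 2, 6212 and 6516 on day 6, then 21768 and 22781 on day 10. In K19R it measured 2.95 and 6.82 CPM at day 2, 2553 and 2294 on day 6, then 11197 and 9426 on day 10. The lines did not overlap on any of these days, K19R being the higher at day 2 and the lower at days 6 and 10. At day 10, Afp alone took 1.82% ± 0.0157 of all counts in FLAG-WT and 1.04% ± 0.146 in K19R (SD, n = 2). The log2 difference, K19R minus FLAG-WT, was 0.79 ± 0.83 (SE) at day 2, which did not pass (edgeR adjusted p = 0.474), -1.39 ± 0.46 at day 6 (adjusted p = 0.0107) and -1.11 ± 0.45 at day 10 (adjusted p = 0.0378). Without FLAG-WT day 0 replicate 2 the SE at day 10 was 0.13, and Afp passed on all 3 days, as higher in K19R at day 2 (adjusted p = 0.00706). With library totals in place of TMM scaling, the day 6 and day 10 differences were -1.03 and -0.81 and did not pass (adjusted p = 0.0578 and 0.133), and DESeq2 with all libraries called neither (adjusted p = 0.108 and 0.18). The day 6 call was also lost without replicate 2 of K19R at day 6 (adjusted p = 0.0641), and the day 10 call when any 1 of the 4 libraries of that day was left out (adjusted p of 0.0538 to 0.139).

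Alb encodes albumin, the main serum protein of the adult, and lies 14134 bases before Afp on chromosome 5. It had 0 counts in 8 of the 18 libraries and at most 25 in any. FLAG-WT held 8 and 9 counts at day 0, 0 and 0 at day 2, 12 and 10 on day 6, then 16 and 11 on day 10. K19R held none at days 0 and 2, 9 and 3 on day 6, then 25 and 10 on day 10, so the lines overlapped at day 10. The log2 difference between the lines was -1.25 ± 0.66 at day 6 (edgeR adjusted p = 0.108) and 0.01 ± 0.53 at day 10 (adjusted p = 0.999), and the first passed without replicate 1 of K19R at day 6 (-2.31, adjusted p = 0.0448). Per kilobase of exon, Afp exceeded Alb 21751-fold in FLAG-WT at day 10 and 10089-fold in K19R. From day 2 to day 6 Alb was at least 4.72-fold higher in FLAG-WT and at least 2.36-fold higher in K19R, taking 3 counts per library as the limit of a count of 0 (counting error only).

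Ttr encodes transthyretin, the carrier of thyroxine and, with Rbp4, of retinol. FLAG-WT measured 4.61 and 4.83 CPM at day 2, 1141 and 1208 on day 6, then 1162 and 1026 on day 10. K19R measured 0.899 and 1.26 CPM at day 2, 295 and 236 on day 6, then 1839 and 2002 on day 10. The order of the lines thus turned between day 6 and day 10, with no overlap on either day. The log2 difference was -2.13 ± 0.63 at day 2 (edgeR adjusted p = 0.00741), -2.15 ± 0.27 at day 6 (adjusted p = 1.83e-07) and 0.81 ± 0.26 at day 10 (adjusted p = 0.00992). In FLAG-WT the level at day 10 did not differ from that at day 6 by the test (log2 change -0.10 ± 0.26, adjusted p = 0.79), while in K19R it rose 7.24-fold. Without replicate 1 of K19R at day 2, the day 2 call was lost (adjusted p = 0.0559), and DESeq2 with all libraries did not call Ttr on any of the 3 days (adjusted p of 0.106 to 0.609).

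Rbp4 (chr19:38116620-38125321, GRCm38, - strand) encodes the plasma retinol binding protein. FLAG-WT measured 8.8 and 10.7 CPM at day 2, 4479 and 4553 on day 6, then 4663 and 4745 on day 10. K19R measured 3.02 and 3.56 CPM at day 2, 891 and 780 on day 6, then 2074 and 2295 on day 10, below both FLAG-WT libraries on each day. The log2 difference was -1.58 ± 0.32 at day 2, -2.43 ± 0.21 at day 6 and -1.11 ± 0.20 at day 10 (edgeR adjusted p of 0.000297, 1.38e-10 and 3.17e-05). Ttr and Rbp4, whose products travel together, thus stood on opposite sides of the FLAG-WT level at day 10.

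Apob (chr12:7977648-8016835, + strand) encodes the large structural protein of chylomicrons and very low density lipoprotein. FLAG-WT measured 94.8 and 92.6 CPM at day 2, 4513 and 4664 on day 6, then 2454 and 2188 on day 10. K19R measured 11.8 and 9.44 CPM at day 2, 1467 and 1447 on day 6, then 2901 and 3671 on day 10. Apob had the most counts of the members at day 2 in both lines and was the one that fell in FLAG-WT from day 6 to day 10 (log2 change -0.98 ± 0.23, edgeR adjusted p = 0.00112). The log2 difference between the lines was -3.14 ± 0.28 at day 2 and -1.66 ± 0.24 at day 6 (adjusted p = 1.32e-09 and 1.16e-06). At day 10 it was 0.50 ± 0.23 and did not pass (adjusted p = 0.0654), although both K19R libraries lay above both FLAG-WT libraries. It passed without FLAG-WT day 0 replicate 2 (0.51 ± 0.09, adjusted p = 2.39e-05) and with library totals (0.80, adjusted p = 0.00494).

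Apoa1, Apoa2 and Apoa4 encode apolipoproteins of high density lipoprotein, Apoa4 being also a product of the absorbing intestine. Apoa1 lies at chr9:46228580-46230466, Apoa4 at chr9:46240696-46243459 and Apoa2 at chr1:171225054-171226379, all on the + strand. Apoa1 measured 14.4 and 15.9 CPM in FLAG-WT at day 2, 1968 and 1933 on day 6, then 2081 and 2172 on day 10. In K19R it measured 1.64 and 2 CPM at day 2, 733 and 647 on day 6, then 1813 and 1977 on day 10. K19R was thus far below FLAG-WT at day 2 (log2 difference -3.06 ± 0.43, edgeR adjusted p = 1.98e-06) and at day 6 (-1.5 ± 0.25, adjusted p = 9.24e-06), and nearer to it at day 10, where both K19R libraries still lay below both FLAG-WT libraries. There the difference was -0.17 ± 0.24 (adjusted p = 0.574), 0.14 with library totals, and -0.23 under DESeq2 without FLAG-WT day 0 replicate 2, which called it (adjusted p = 0.00553). With all libraries, DESeq2 called Apoa1 at neither day 6 (adjusted p = 0.181) nor day 10 (adjusted p = 0.86).

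Apoa2 was the member with the largest difference at day 6. FLAG-WT measured 0.259 and 0.172 CPM at day 2 (6 and 5 counts), 296 and 289 on day 6, then 749 and 745 on day 10. K19R measured 0.193 and 0.305 CPM at day 2 (6 and 9 counts), 42 and 29.9 on day 6, then 423 and 422 on day 10. The lines overlapped at day 2 (log2 difference 0.23 ± 1.01, edgeR adjusted p = 0.885). The difference was -3.03 ± 0.16 at day 6 and -0.82 ± 0.14 at day 10 (adjusted p = 2.68e-14 and 1.89e-05). DESeq2 with all libraries called Apoa2 at day 6 but not at day 10 (-0.88, adjusted p = 0.389).

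Apoa4 was the member with the lowest CPM other than Alb at days 6 and 10 in both lines. FLAG-WT measured 1.16 and 1.14 CPM at day 2, 101 and 89.2 on day 6, then 138 and 170.4 on day 10. K19R measured 0.193 and 0.0339 CPM at day 2 (6 counts and 1), 25.8 and 26.6 on day 6, then 62.7 and 53 on day 10. It stayed below FLAG-WT on each day: the log2 difference was -3.26 ± 0.58 at day 2, -1.86 ± 0.12 at day 6 and -1.41 ± 0.12 at day 10 (edgeR adjusted p = 6.02e-05, 3.07e-12 and 2.32e-10).

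Fgb (chr3:83040141-83049863, - strand) encodes the fibrinogen beta chain, which is assembled with the products of Fga and Fgg into the precursor of fibrin. FLAG-WT measured 2.24 and 2.07 CPM at day 2, 343 and 361 on day 6, then 622 and 593 on day 10. K19R measured 0.449 and 0.577 CPM at day 2, 77.5 and 68 on day 6, then 280 and 263 on day 10. The lines did not overlap on any day, and the log2 difference was -2.06 ± 0.46, -2.27 ± 0.14 and -1.16 ± 0.13 at days 2, 6 and 10 (edgeR adjusted p = 0.000801, 6.31e-13 and 4.88e-08). Under DESeq2 with all libraries Fgb was called at day 6 but not at day 2 (adjusted p = 0.0554) or day 10 (adjusted p = 0.219).

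Counted over time, all 9 members rose in FLAG-WT between day 2 and day 6, where 35.6% of all genes tested rose. Alb and Apoa2 reached 10 counts in both libraries of a group only at days 6 and 10. They passed the filter through those days, so their rises are not independent of it. The folds ran from 49-fold (Apob) to 2271-fold (Afp) in the 8 members with counts on both days. The median log2 change of the members was 7.35, beside -0.05 over all genes (-0.45 with library totals). From day 6 to day 10, Afp, Apoa2, Fgb and Apoa4 rose (4 of 9, against 21.2% of all genes), Apob fell (1 of 9, against 22.9%), and Ttr, Apoa1, Rbp4 and Alb did not pass. Of these 5, DESeq2 with all libraries called the rises of Afp and Apoa4 (2 members) and lost those of Apoa2 (adjusted p = 0.183) and Fgb (adjusted p = 0.466) and the fall of Apob (adjusted p = 0.148).

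In K19R all 9 rose from day 2 to day 6 (34.7% of all genes rose), from 137-fold (Apob) to 499-fold (Afp) in the 8 members with counts on both days. The limit set by the filter for Alb and Apoa2 holds here too. All 9 rose again from day 6 to day 10 (33.4% of all genes rose), from 2.21-fold (Apoa4) to 11.8-fold (Apoa2). The median log2 changes were 7.76 and 1.64, beside 0.03 and 0.07 over all genes. The second rise of Alb rests on few counts: without replicate 2 of K19R at day 6 its adjusted p was 0.275, and without replicate 1 of K19R at day 10 it was 0.383 (edgeR). Under DESeq2, 5 of the 9 rose from day 6 to day 10 in K19R with all libraries, and 8 with FLAG-WT day 0 replicate 2 left out.

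Between the lines, 6 members were lower in K19R at day 2 (all but Afp, Apoa2 and Alb), where 21.8% of all genes tested were lower. Without FLAG-WT day 0 replicate 2 the 6 lower calls stood beside 1 higher, Afp, against 20.2% lower and 18.3% higher among all genes. At day 6, 8 were lower (all but Alb) against 30.1% of all genes. That count was again 8 without the library (28.3% of all genes lower), 7 with library totals and 5 under DESeq2 with all libraries. At day 10, 5 were lower (Afp, Rbp4, Apoa2, Apoa4 and Fgb) and 1 higher (Ttr), against 25.2% lower and 33.2% higher. Without the library it was 5 lower and 2 higher, Apob joining Ttr, against 23.5% and 31.6%. With library totals it was 4 lower and 2 higher, and DESeq2 called 2, both lower, with all libraries, and 6 lower and 2 higher without that one. The median log2 difference of the members was -2.06, -1.86 and -0.82 at days 2, 6 and 10, beside 0, 0.02 and 0.13 over all genes. With library totals the median over all genes moved by 0.36 at day 6 and 0.30 at day 10, so these 2 days are to be read relative to that shift.

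**Figure D2:**
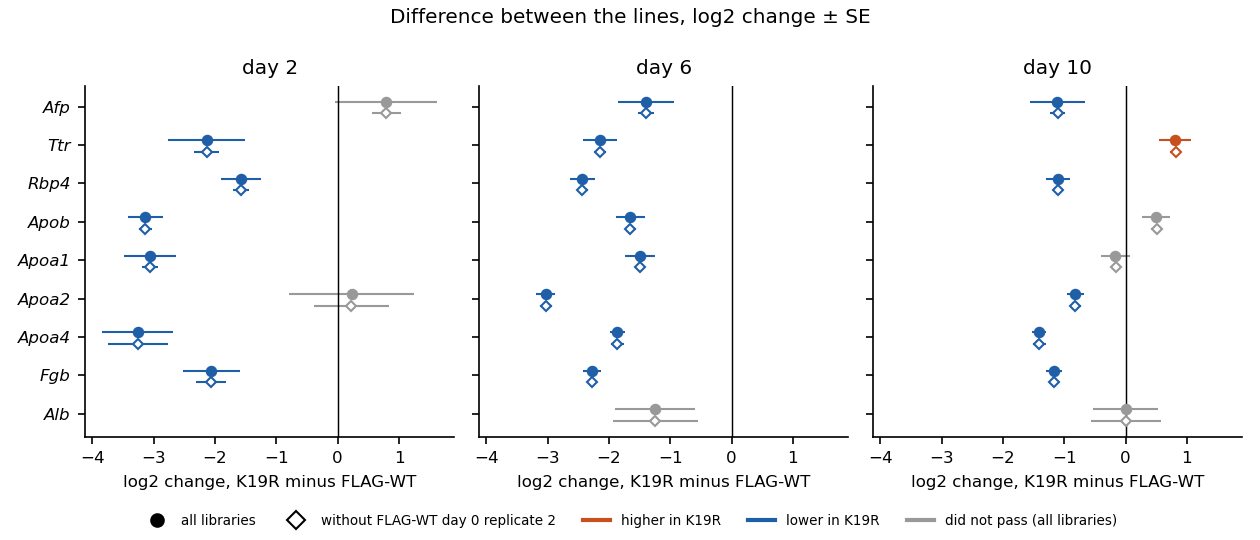
Log2 difference between the lines (K19R minus FLAG-WT, horizontal axis) with its SE for each member at days 2, 6 and 10. Filled circles use all libraries, and open diamonds leave out replicate 2 of FLAG-WT at day 0. Estimates stay in place while the bars shorten, and at day 10 the members spread from -1.41 (Apoa4) to 0.81 (Ttr).

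Whether the gap between the lines itself changed was tested as an interaction in the same fit. From day 6 to day 10 the K19R minus FLAG-WT difference moved up for 7 of 9 members, against 24.4% of all genes. The change was 2.96 ± 0.38 for Ttr, 2.21 ± 0.21 for Apoa2 and 2.16 ± 0.33 for Apob on the log2 scale. It was 1.33 ± 0.34 for Apoa1, 1.33 ± 0.28 for Rbp4, 1.11 ± 0.19 for Fgb and 0.45 ± 0.17 for Apoa4, and the edgeR adjusted p of the 7 ran from 4.97e-09 to 0.038. Afp did not pass (0.28 ± 0.63, adjusted p = 0.773), nor did Alb (1.25 ± 0.84, adjusted p = 0.262). The call of Apoa4 was lost with DESeq2's size factors in edgeR (adjusted p = 0.08), with library totals (adjusted p = 0.0746) and without either K19R library of day 6, replicate 1 of K19R at day 10, or replicate 1 of FLAG-WT at day 6 or 10 (adjusted p of 0.0713 to 0.164). DESeq2 with all libraries called 1 of the 7, and 6 members without FLAG-WT day 0 replicate 2. The move was not particular to the members. In edgeR the difference also moved up for 10 of 10 visceral endoderm markers, 19 of 27 other serum protein genes and 5 of 5 pluripotency markers, with 0 down in each. Of 9 parietal endoderm markers 4 moved up and 1 down.

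From day 2 to day 6 the members split. The difference moved up for Apoa1 (1.56 ± 0.52, edgeR adjusted p = 0.0153) and Apob (1.48 ± 0.36, adjusted p = 0.00155), and down for Apoa2 (-3.26 ± 1.08, adjusted p = 0.0166), whose day 2 level rests on 5 to 9 counts a library. That is 2 members up and 1 down, against 23.2% and 21.3% of all genes. Without FLAG-WT day 0 replicate 2 it was 3 up (Apoa4 with them) and 3 down (Afp and Rbp4 with Apoa2), against 21.6% and 19.7%. The call of Apoa2 was lost without replicate 2 of FLAG-WT (adjusted p = 0.0501) or of K19R (adjusted p = 0.148) at day 2, and that of Apoa1 without replicate 1 of K19R at day 2 (adjusted p = 0.0725). DESeq2 with all libraries called neither Apoa1 (adjusted p = 0.384) nor Apob (adjusted p = 0.107), and called Apoa2 and Apoa4.

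At day 0 the question is whether the undifferentiated lines differ in these genes, and how many did so depends on 1 library. Both K19R libraries held 0 counts of Apoa2, Apoa4, Fgb and Alb. They held 8 and 2 counts of Afp, 1 and 0 of Ttr, and 1 and 2 of Apoa1. Apob (1.44 and 1.82 CPM) and Rbp4 (1.44 and 1.16 CPM) were present in both. FLAG-WT replicate 1 measured 1.78 CPM of Afp, 2.27 of Apob, 1.94 of Rbp4, 0.33 of Apoa1, 0.33 of Alb, 0.124 of Ttr, 0.124 of Apoa2 and 0.0826 of Fgb, with no count of Apoa4. Replicate 2 measured 55 CPM of Afp, 14.5 of Apob, 10.4 of Rbp4, 8.97 of Ttr, 8.7 of Apoa1, 2.06 of Apoa2, 1.98 of Fgb, 0.356 of Alb and 0.316 of Apoa4.

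With all libraries, 8 members were lower in K19R at day 0 (all but Apoa4), against 4.98% of all genes tested. Without FLAG-WT replicate 2 this was 1, Afp, against 1.92% of all genes. The log2 difference of Afp was -7.08 ± 1.11 with that library (edgeR adjusted p = 9.84e-05) and -3.08 ± 0.61 without it (adjusted p = 0.00216). Apob changed from -2.39 ± 0.47 to -0.50 ± 0.28 and Rbp4 from -2.24 ± 0.44 to -0.56 ± 0.27, with adjusted p of 0.403 and 0.299 once the library was left out. With both FLAG-WT libraries, Ttr was 226-fold higher than in K19R (exact 95% binomial interval 40.1 to 8953) and Apoa1 74.6-fold higher (25.2 to 364). Apoa2 was at least 8.71-fold, Fgb at least 8.23-fold and Alb at least 2.74-fold higher than in K19R, whose libraries at 0 were set at 3 counts each. With replicate 1 of FLAG-WT alone, Apoa1 was 5.35-fold higher (8 counts against 3, interval 1.28 to 31.3) and Alb at least 2.64-fold. Ttr, Apoa2 and Fgb then held at most 3 counts in either line, and no fold is given. These intervals and limits cover counting error only.

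The change from day 0 to day 2 in FLAG-WT rests on the same library. With both libraries, Apob, Apoa1, Apoa4 and Fgb rose (4 of 9, against 28.5% of all genes), and Afp, Apoa2 and Alb fell (3 of 9, against 27.6%). Without replicate 2 of day 0, Apob, Apoa1, Apoa4, Fgb, Ttr and Rbp4 rose (6 of 9, against 23.4%), and Alb, with 8 counts in replicate 1 at day 0 and 0 in both day 2 libraries, fell (1 of 9, against 22.5%). Afp then turned from a fall of 3.35 on the log2 scale to a change of 0.66 ± 0.36 that did not pass (edgeR adjusted p = 0.145), and Apoa2 from a fall of 2.37 to 0.75 ± 0.94 (adjusted p = 0.557). Apob rose in either case, by 3.47 ± 0.30 with the library and 5.37 ± 0.19 without it. The call of Fgb (1.03 ± 0.41, adjusted p = 0.0376) was lost without replicate 1 of day 0 or either library of day 2 (adjusted p of 0.0789 to 0.727), and that of Apoa2 without replicate 2 of day 2 (adjusted p = 0.0696). On this step DESeq2 with all libraries called neither Fgb (adjusted p = 0.329) nor Apoa1 (adjusted p = 0.12).

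In K19R, 6 members rose from day 0 to day 2 (Afp, Apob, Rbp4, Ttr, Apoa1 and Fgb), against 28.5% of all genes. The log2 change was 4.53 ± 1.48 for Afp, 2.72 ± 0.45 for Apob and 1.32 ± 0.48 for Rbp4 (edgeR adjusted p = 0.0108, 1.02e-05 and 0.0218). Without replicate 2 of K19R at day 2 the calls of Afp (adjusted p = 0.089) and Rbp4 (adjusted p = 0.0866) were lost, that of Rbp4 also without either K19R library of day 0. Without FLAG-WT day 0 replicate 2 in the joint fit, 8 rose (27.1% of all genes), Apoa2 and Apoa4 joining them. The K19R minus FLAG-WT difference moved up from day 0 to day 2 for 2 members, Afp (7.88 ± 1.52, adjusted p = 0.000288) and Apoa2 (adjusted p = 0.0115, with no change printed since K19R held no count at day 0), against 12.7% of all genes. Without the library it moved up for Afp (3.87 ± 0.65, adjusted p = 5.14e-05) and down for Apob (-2.64 ± 0.30) and Rbp4 (-1.02 ± 0.30), against 8.87% up and 11.3% down among all genes. Apoa2 did not pass without it (adjusted p = 0.097).

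The wildtype mESCs, grown without 2i and counted in a separate table, held 0 counts of Alb, Apoa4 and Fgb, 0 and 2 of Afp, 1 and 1 of Ttr, 1 and 2 of Apoa1, and 5 and 14 of Apoa2. Rbp4 measured 2.6 and 1.33 CPM and Apob 0.975 and 1.33 CPM, overlapping K19R at day 0 for Rbp4. All 9 members were lower than in FLAG-WT at day 0 with both libraries of that group, against 32.5% of the 19296 genes tested in the fit of all 18 libraries. Without FLAG-WT replicate 2 this was 4 of 9 (Afp, Alb, Apoa1 and Apob) against 27.9%. The call of Apoa2 was also lost without replicate 2 of the wildtype mESCs (adjusted p = 0.142) and under DESeq2 with all libraries (adjusted p = 0.0856). Set against K19R at day 0, 1 member passed: Apoa2, with 19 counts in wildtype mESCs and 0 in K19R, at least 2.67-fold higher, against 32.7% of all genes higher. That call was lost without replicate 2 of the wildtype mESCs or either K19R library. Line, tag, medium and counting version change together in these comparisons and cannot be told apart.

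**Figure D3:**
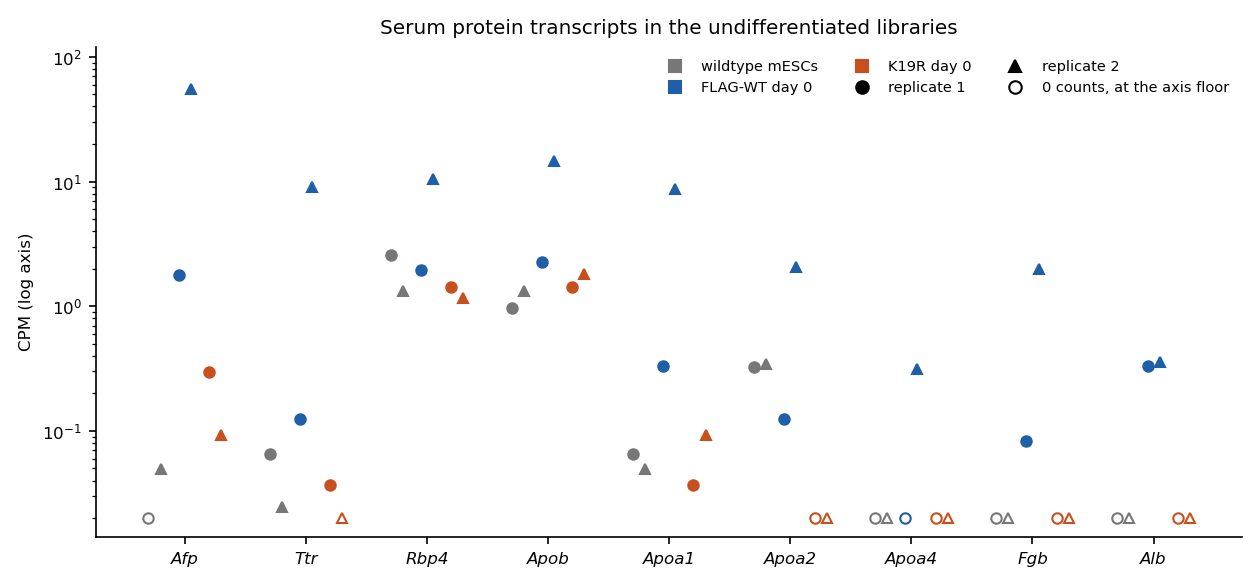
Level of each member in the 6 undifferentiated libraries, in CPM on a log axis, with open symbols at the floor for 0 counts. The upper blue triangles are replicate 2 of FLAG-WT at day 0 (55 CPM of Afp), and for Alb both FLAG-WT libraries lie together (0.33 and 0.356 CPM) above libraries with no count.

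Levels of different genes were compared per kilobase of exon. In FLAG-WT at day 6 the order was Rbp4 (3482 ± 40.1 CPM per kb, SD, n = 2), Afp (1889 ± 63.8), Apoa1 (1578 ± 20.2), Ttr (963 ± 39), Apoa2 (545 ± 8.97), Apob (329 ± 7.67), Fgb (92.3 ± 3.39), Apoa4 (52.5 ± 4.67) and Alb (0.235 ± 0.0207), with no overlap between neighbours. At day 10 Afp led with 6614 ± 213, followed by Rbp4 (3627 ± 44.7), Apoa1 (1720 ± 52), Apoa2 (1391 ± 4.93) and Ttr (898 ± 78.8), and Apob (167 ± 13.5) and Fgb (159 ± 5.35) overlapped. In K19R, Afp (720 ± 54.3) and Rbp4 (644 ± 60.8) overlapped at the top at day 6. At day 10 Afp stood first in K19R (3062 ± 372), and Rbp4 (1684 ± 120), Ttr (1576 ± 94.8) and Apoa1 (1533 ± 94.2) overlapped behind it. Afp therefore passed Rbp4 between day 6 and day 10 in FLAG-WT, and Ttr, below Apoa1 and Rbp4 at day 6 in both lines, overlapped with them in K19R at day 10. Apob, which has 13934 exonic bases, had the most counts at day 2, but per kilobase Apoa1 (12.3 ± 0.876) led in FLAG-WT and Rbp4 (2.54 ± 0.298) in K19R at that day.

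Across groups, CPM of Afp and Apoa2 ran from FLAG-WT at day 10 through K19R at day 10 and FLAG-WT at day 6 to K19R at day 6, with no overlap. For Apoa4, Fgb and Rbp4, K19R at day 10 lay below FLAG-WT at day 6. For Apob it lay between FLAG-WT at day 6 and day 10, for Ttr it was the highest of all groups, and for Apoa1 it overlapped with FLAG-WT at day 6. Ttr in FLAG-WT overlapped between days 6 and 10.

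The members have close relatives beside them in the genome, named here for their position. The Alb gene lies at chr5:90460897-90476602 (GRCm38, + strand), Afp at chr5:90490737-90508907 and Afm, which encodes afamin of the same family and was added after its values were seen, starts 10024 bases beyond Afp. Afm had 0 counts in every library up to day 2, 0 and 2 in FLAG-WT and 0 and 3 in K19R at day 6, and 59 and 75 in FLAG-WT and 59 and 27 in K19R at day 10. It thus appeared at day 10, at 1.17 ± 0.217 CPM per kb in FLAG-WT, above Alb and far below Afp (edgeR log2 difference between the lines -1.01 ± 0.41, adjusted p = 0.0373).

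On chromosome 9, Apoc3 lies 2466 bases beyond Apoa1, Apoa4 5059 bases beyond Apoc3, and Apoa5 25173 bases beyond Apoa4. Apoc3 and Apoa5, which govern triglyceride clearance, stayed low: in FLAG-WT at day 6 they measured 5.19 ± 0.152 and 1.26 ± 0.342 CPM per kb, beside 1578 for Apoa1 and 52.5 for Apoa4. Both were lower in K19R at day 6 (log2 difference -2.59 ± 0.31 and -1.16 ± 0.30, edgeR adjusted p = 1.77e-07 and 0.00162). At day 10 their differences of 0.19 ± 0.26 and 0.33 ± 0.24 did not pass (adjusted p = 0.541 and 0.237), as for Apoa1, while Apoa4 in the same cluster stayed lower. On chromosome 3, Fga lies 6513 bases from Fgb, and Fgg 11026 bases from Fga. The 3 fibrinogen chains kept nearer levels, at 159 ± 5.35 (Fgb), 79 ± 5.78 (Fga) and 56.9 ± 1.11 (Fgg) CPM per kb in FLAG-WT at day 10. All 3 were lower in K19R at day 6 (log2 differences of -2.27, -1.88 and -1.78) and at day 10 (-1.16, -0.64 and -0.88), with edgeR adjusted p of at most 7e-05.

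**Figure D4:**
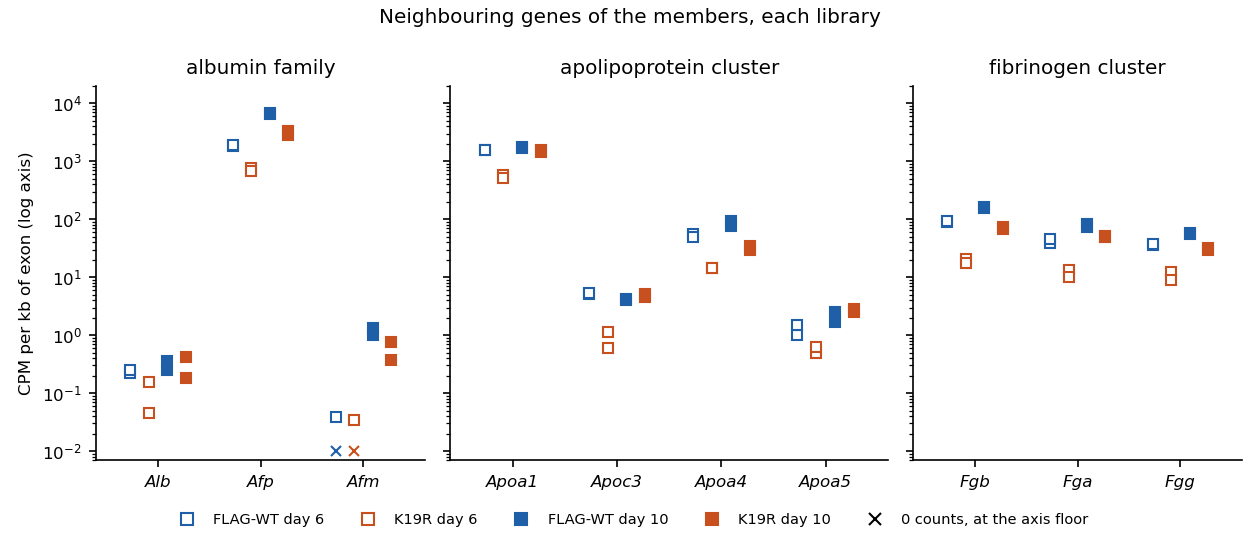
Level per kilobase of exon (CPM per kb, log axis) in the gene clusters of Alb and Afp, of Apoa1 and Apoa4, and of Fgb at days 6 (open) and 10 (filled), 1 square a library, crosses marking 0 counts. Alb lies near the floor beside Afp (0.304 against 6614 CPM per kb in FLAG-WT at day 10), and the 3 fibrinogen genes lie close together.

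Other serum protein genes were counted from a list of 30, of which 27 could be tested. In K19R, 7 were lower and 1 higher at day 2, 21 lower and 1 higher at day 6, and 16 lower and 6 higher at day 10 (8 higher and 12 lower with library totals). Over all 19092 genes, 21.8% were lower and 3818 genes higher on day 2, 30.1% lower and 28.4% higher on day 6, then 25.2% lower and 33.2% higher on day 10. The 7 of 27 at day 2 thus lay near the share of all genes, and counts of the lists that follow are to be read beside the same shares. Their median log2 difference was -0.39, -2.06 and -0.53, beside medians of -2.06, -1.86 and -0.82 for the members. At day 2, Serpinf2, an inhibitor of plasmin, had the largest change among those with more than 3 counts in each line (-3.09 ± 0.41, edgeR adjusted p = 8.88e-07), while Itih2 and F10 also passed on at most 1 count in K19R. At day 6 Itih3 and Serpina1b were at 0 in K19R, and Serpinc1, antithrombin, measured 14 CPM in FLAG-WT and 0.947 in K19R (-3.90 ± 0.20, adjusted p = 1.19e-14). At day 10 Serpinc1 was lower (-1.77 ± 0.15), and Itih3 (1.92 ± 0.69) and Ahsg (1.65 ± 0.48) were higher, with under 1 CPM of each in both lines.

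Of 17 transcription factors known to act on visceral endoderm or liver genes, 13 were lower and 1 higher in K19R at day 2, beside 21.8% of all genes lower. Among them Sox7 (log2 difference -3.60 ± 0.11) and Gata4 (-3.39 ± 0.10) were lower, with edgeR adjusted p of at most 2.65e-19. At day 6, 9 were lower and 3 higher (5 with library totals), and at day 10, 4 were lower and 9 higher (3 and 12 with library totals). At day 6 the nuclear receptor gene Nr5a2 was higher (2.59 ± 0.23) and Nr1h4 (-2.14 ± 0.62) and Gata6 (-1.75 ± 0.08) were lower, and at day 10 Nr5a2 (3.28 ± 0.21), Foxa1 (1.99 ± 0.21) and Hhex (1.93 ± 0.14) were higher. Nr5a2, Foxa1 and Hhex were also expressed in the stem cells. Replicate 1 of FLAG-WT at day 0 held 7437%, 206% and 236% of their mean level in FLAG-WT at day 6. The factors' summed level was 924 to 936 CPM in FLAG-WT and 141 to 152 in K19R at day 2, and 1148 to 1331 and 1427 to 1478 at day 10. The factors therefore stood above the FLAG-WT range at day 10 in sum, while 6 of the 9 members (Afp, Rbp4, Apoa1, Apoa2, Apoa4 and Fgb) stood below it in both K19R libraries, 5 of them past the test (25.2% of all genes).

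Lipoprotein assembly and retinol handling genes were 11, all of them tested. In K19R 3 were lower at day 2, 8 lower at day 6 (with 1 higher under library totals), and 6 lower and 2 higher at day 10 (5 and 4 with library totals). Mttp, which loads lipid onto the Apob protein, differed by -1.98 ± 0.11 at day 2 and -1.65 ± 0.08 at day 6 (edgeR adjusted p = 3.67e-14 and 8.15e-15), beside -3.14 and -1.66 for Apob itself. Tm6sf2, another gene of lipoprotein secretion, differed by -3.83 ± 0.18 at day 6 and -1.44 ± 0.12 at day 10.

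Cell type markers also differed between the lines, and their part in the members' differences was not tested. All 10 visceral endoderm markers were lower in K19R at day 2 and 9 at day 6 (8 with library totals), with 5197 to 5267 CPM in FLAG-WT and 464 to 590 in K19R at day 2, and 11327 to 11717 against 4897 to 5048 at day 6. At day 10, 3 were lower (Amn among them) and 3 higher, or 5 higher and none lower with library totals, and their sums overlapped (5708 to 6139 and 5706 to 7049 CPM). In FLAG-WT from day 6 to day 10, 8 of the 10 fell and 1 rose (beside 22.9% and 21.2% of all genes), while the members' share of counts went from 1.61% to 2.78%. Within that share Afp alone went from 0.53% to 1.82%, and the share of the other members together did not rise. The higher ones in K19R at day 10 were Ihh (1.82 ± 0.16), Cited1 (0.87 ± 0.09) and Bmp2 (0.62 ± 0.15). Of 9 parietal endoderm markers, 8 were lower at each of days 2, 6 and 10, and 1, Pth1r, was higher at day 10. Of 5 pluripotency markers, 3 were lower in K19R at day 2 (Zfp42 -1.08 ± 0.10, Esrrb -0.81 ± 0.11 and Nanog -0.40 ± 0.10), with 1433 to 1534 CPM in sum against 1889 to 1912 in FLAG-WT. All 5 were higher in K19R at days 6 and 10, with 463 to 582 CPM in sum at day 10 against 51 to 52.6 in FLAG-WT. No visceral endoderm or pluripotency marker was at 0 in any knock-in library, and 1 parietal endoderm marker was at 0 in 1 FLAG-WT library at day 2.

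The markers that moved most were these. In the visceral endoderm list Slc2a2, a glucose transporter, differed by -4.49 ± 0.47, Cubn by -3.70 ± 0.26 and Amn by -3.52 ± 0.13 at day 2, and Slc2a2 by -2.40 ± 0.16, Spink1 by -2.10 ± 0.13 and Amn by -1.87 ± 0.10 at day 6. In the parietal list the basement membrane genes Lama1 (-3.27 ± 0.14), Col4a2 (-3.04 ± 0.09) and Col4a1 (-2.79 ± 0.10) led at day 2, Sparc (-1.58 ± 0.08), Col4a2 (-1.55 ± 0.08) and Col4a1 (-1.49 ± 0.09) at day 6, and Nid1 (-1.73 ± 0.10), Lama1 (-1.37 ± 0.13) and Pth1r (1.28 ± 0.10) at day 10. Among pluripotency markers Sox2 (5.47 ± 0.14), Esrrb (4.72 ± 0.17) and Nanog (4.22 ± 0.14) were higher at day 10. All these passed edgeR's test with adjusted p of at most 1.62e-08.

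Of 8 testable markers of definitive or anterior endoderm, 3 were higher and 4 lower in K19R at day 2, 1 higher and 2 lower at day 6 (3 and 2 with library totals), and 5 higher and 1 lower at day 10 (7 and 0 with library totals), beside 33.2% and 25.2% of all genes at day 10. Otx2, a gene of anterior endoderm and of neural tissue, was the largest of them at day 10 (4.91 ± 0.19). It was already present in the stem cells, with a mean of 42.7 CPM in FLAG-WT and 52.7 in K19R at day 0. At day 10 it measured 0.823 and 24.8 CPM, so its higher level in K19R is no mark of endoderm by itself. Of 6 testable intestinal genes, all were lower at day 6 (30.1% of all genes), when Fabp1 differed by -2.14 ± 0.34, with 3 higher and 2 lower on day 10 (4 and 1 with library totals), when Fabp1 differed by 2.32 ± 0.30. The 4 testable hepatocyte enzymes gave 1 call a day: Pck1 was lower at day 2 (-2.88 ± 0.60), Ass1 lower at day 6 (-1.36 ± 0.06) and Cps1 higher at day 10 (2.11 ± 0.31), with 2 more higher at day 10 under library totals.

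At day 0, 5.51% of all genes were higher and 4.98% lower in K19R, and 4 of 27 other serum genes, 4 of 17 transcription factors, 3 of 11 assembly genes and 4 of 10 visceral endoderm markers passed. Apoe (-0.97 ± 0.15) and Fga (-3.02 ± 0.88) were lower in K19R, and Serpinc1 (1.01 ± 0.19) and Apom (0.57 ± 0.18) higher. Of the transcription factors, Gata6 (-0.75 ± 0.21), Hhex (-0.51 ± 0.12) and, on few counts, Sox7 were lower and Onecut1 (1.07 ± 0.32) higher. Among the assembly genes Mttp (-1.09 ± 0.27) and Dgat2 (-0.45 ± 0.13) were lower and Abca1 (0.50 ± 0.10) higher. Of the visceral endoderm markers, Lrp2 (0.94 ± 0.11), Dab2 (0.95 ± 0.14) and Npl (0.41 ± 0.08) were higher, while Cubn was lower (-1.92 ± 0.54) with all libraries and differed by 0.50 without FLAG-WT replicate 2. Single genes also passed among the parietal (Pth1r, lower), intestinal (Lgals4, lower) and definitive endoderm markers (Trh lower, Otx2 higher). Without FLAG-WT replicate 2 the calls of Apoe, Serpinc1, Apom, Gata6, Abca1, Lrp2, Dab2, Npl and Trh were kept and the other ones lost, and the transcription factor gene Hnf4a was called higher in K19R.

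**Figure D5:**
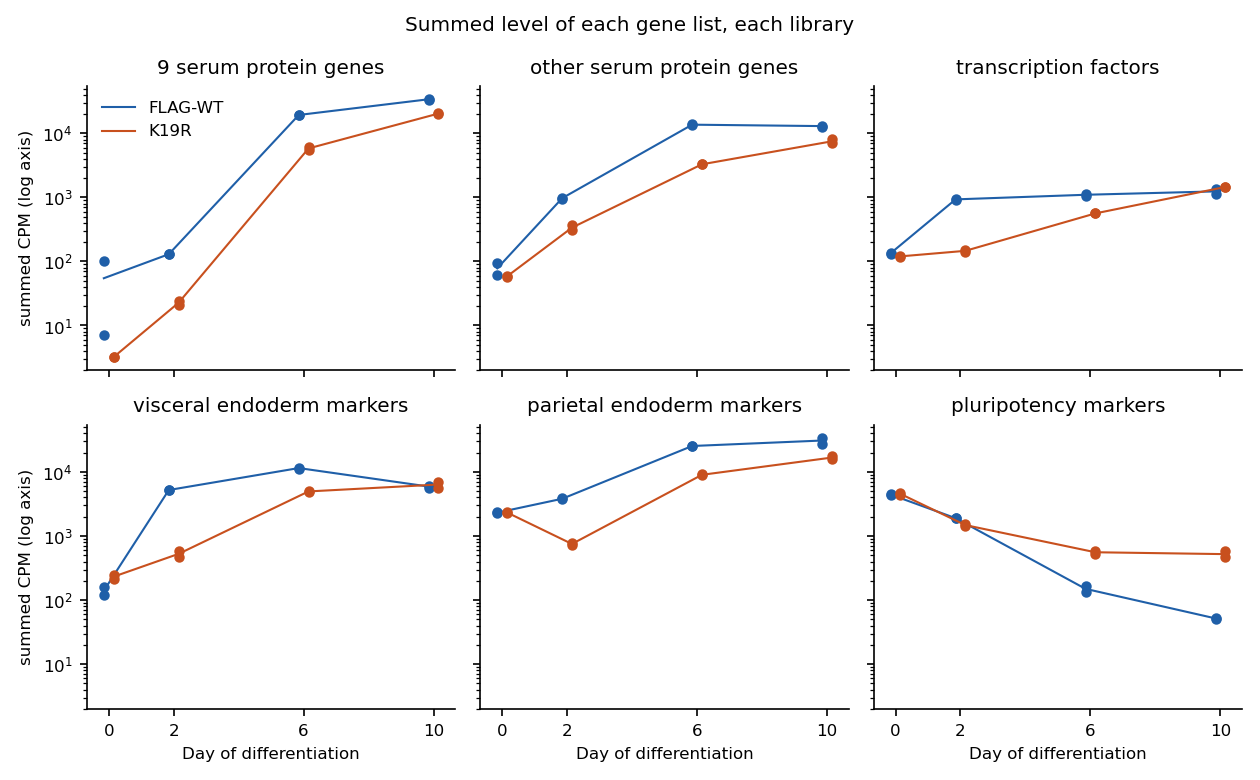
Summed CPM (log axis) of the 9 members and 5 other gene lists in each FLAG-EED library, by day, with lines through the means. In FLAG-WT the transcription factors and visceral endoderm markers were up by day 2. The members' sum in FLAG-WT went from 6.98 (replicate 1) and 102 CPM (replicate 2) at day 0 to 129 to 130.3 CPM at day 2. In K19R at day 10 the sums of the factors and visceral endoderm markers reached or passed the FLAG-WT range. The members' sum (20110 to 20591 CPM) stayed below it. Most of that gap is Afp, with a mean of 22275 CPM in FLAG-WT and 10312 in K19R at day 10, within mean sums of 34029 and 20351.

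The genes whose pattern was most like the mean of the 9 members over the 16 FLAG-EED libraries were S100g (Pearson r of log2 CPM 0.993), Spp2 (0.991), Phf2 (0.99), Tmprss2 (0.99) and Hkdc1 (0.989). These points share libraries, lines and days, and r is given as a description. S100g, a calcium binding protein of the yolk sac and intestine, measured a mean of 1056 CPM in FLAG-WT and 178 in K19R at day 6, and 1145 and 974 at day 10. Among the members other than Alb, the r of each with the mean of the other 8 ran from 0.963 (Apob) to 0.994 (Fgb), and it was 0.80 for Alb.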

How the data were processed

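RNA-seq counts of 18 libraries were used. The deposited values are raw counts for each gene name, made by the authors with featureCounts 1.6.3 (FLAG-EED libraries) and 1.6.4 (wildtype mESCs) on GENCODE vM19 exons of GRCm38, with no strand option, per the file headers. STAR 2.7.0c, Trim Galore 0.6.0, FastQC 0.11.7 and bcl2fastq 2.17 are listed, without their settings, per the submitters' processing notes. Replicates were not pooled, and reads of overlapping antisense genes cannot be told apart.

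Genes were kept with filterByExpr by group (count minimum 10 per library, 15 in total), scaled by TMM and fitted with edgeR 4.0.16 (glmQLFit and glmQLFTest, two-sided) in R 4.3.3. The 16 FLAG-EED libraries formed 1 fit (19092 genes, 8 residual degrees of freedom), and all 18 formed a second for the wildtype mESCs (54352 shared gene names, 19296 genes, 9 residual degrees of freedom). The 15 comparisons were adjusted by Benjamini-Hochberg at 0.05. Fits without FLAG-WT day 0 replicate 2 were filtered anew and tested 20090 genes, or 20346 with the wildtype mESCs. Shares of all genes and adjusted p with and without that library therefore rest on different gene sets. An SE is the absolute log2 change over the square root of F. A log2 change is printed where each compared group held more than 3 counts. The scripts were tested on simulated data. Samples were grouped by their labels.

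All 9 members are named. From each other list the 3 largest called changes at days 2, 6 and 10 and the members' cluster neighbours are named, with list genes called at day 0 and the 5 genes most alike in pattern, and lists are otherwise counted. 1 gene that this rule would name is not reported here. The members, lists and tests were chosen with earlier results of these data known. Alternatives were DESeq2 1.42.0, DESeq2's size factors in edgeR, library totals, no filter, a replicate block, the compared groups alone and each library left out. Leaving out FLAG-WT day 0 replicate 2 for the other comparisons, also under DESeq2, was added after seeing the data. Sequences come from RefSeq.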

Additional observations from a re-analysis of the deposited data

Results flagged for a closer look

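For 10 changes of a member between later days and 2 from day 0, the difference between the lines (K19R minus FLAG-WT, log2 scale) itself changed by the interaction test of edgeR. From day 6 to day 10 it changed by 2.96 for Ttr, 2.21 for Apoa2, 2.16 for Apob, 1.33 for Apoa1, 1.33 for Rbp4, 1.11 for Fgb and 0.45 for Apoa4. From day 2 to day 6 it changed by 1.56 for Apoa1 and 1.48 for Apob, and by -3.26 for Apoa2. Ttr and Apob, lower in K19R at day 6, had higher values than FLAG-WT in both K19R libraries at day 10. Afp changed by 7.88 from day 0 to day 2, and by 3.87 without FLAG-WT day 0 replicate 2. Apoa2 also passed on that step (adjusted p = 0.0115, and 0.097 without that library), with no value since K19R held no count of it at day 0.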

How the results depend on the processing

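For the 99 changes of members with a fitted value, 1117 values under the alternatives kept their direction and side of the threshold, 65 no longer passed, 39 passed newly and 27 changed sign. Counts of members called differed by over 1.5 times as follows. K19R against FLAG-WT at day 0 gave 8, but 3 with the compared groups alone and 1 without FLAG-WT day 0 replicate 2 (edgeR or DESeq2). DESeq2 with all libraries gave 5 in place of 8 at day 6, 2 in place of 6 at day 10, 2 in place of 5 for day 10 against day 6 in FLAG-WT, 5 in place of 9 for the same in K19R, and 1 in place of 7 for the change of the difference from day 6 to day 10. For that change from day 0 to day 2 (2 members), no filter gave 7, DESeq2 4 and the compared groups alone 1, and from day 2 to day 6 (3 members) no filter, the compared groups alone and leaving out FLAG-WT day 0 replicate 2 (edgeR or DESeq2) each gave 6. Wildtype mESCs against FLAG-WT (9 members) gave 3 with the compared groups alone and 4 without that library (edgeR or DESeq2), and against K19R (1 member) 2 with no filter and 0 with the compared groups alone (DESeq2 with all libraries gave 1). Leaving out 1 library at a time gave 1 to 9 members for K19R against FLAG-WT at day 0, 5 to 7 at day 2, 7 to 9 at day 6 and 5 to 7 at day 10. It gave 5 to 7, 9 to 9 and 5 to 5 for the steps of FLAG-WT, 4 to 8, 8 to 9 and 8 to 9 for those of K19R, 1 to 6, 2 to 6 and 6 to 7 for the changes of the difference, 4 to 9 for wildtype mESCs against FLAG-WT and 0 to 1 against K19R.

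Signs changed as follows, and the cause was not tested beyond what each setting removes. Alb at day 10 (K19R minus FLAG-WT) was -0.026 with the replicate block, -0.056 with DESeq2's size factors, -0.062 with DESeq2, -0.017 with the compared groups alone, -0.066 with DESeq2 without FLAG-WT day 0 replicate 2, and -0.73 to 0.48 with 1 library left out. With 1 library left out, Apoa2 at day 2 ranged from -0.12 to 0.53, and, from day 0 to day 2 in FLAG-WT, Afp from -4.29 to 0.66, Apoa2 from -3.25 to 0.75, Ttr from -0.92 to 5.2 and Rbp4 from -0.089 to 2.34. DESeq2 without FLAG-WT day 0 replicate 2 gave 0.66 for that change of Afp and 0.77 for that of Apoa2. The change of the difference from day 0 to day 2 ranged from -2.64 to 0.036 for Apob and from -1.02 to 1.41 for Rbp4 (-1.03 with DESeq2 without that library), and that of Ttr from day 2 to day 6 from -0.23 to 0.24. With library totals the latter was 0.37 for Ttr and 0.16 for Fgb, and Apoa1 at day 10 was 0.14. Apoa2 in wildtype mESCs against FLAG-WT ranged from -2.60 to 1.41 (1.45 with DESeq2 without FLAG-WT replicate 2), and Cubn at day 0 from -2.76 to 0.50 (0.54 with DESeq2).

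Replicate numbers did not pair the samples: deviations of same-numbered libraries correlated at -0.03 to 0.048 over 28 group pairs, 0 of them above 0.1. The replicate block moved no count of members by over 1.5 times (8, 6, 8 and 6 called in K19R against FLAG-WT at days 0, 2, 6 and 10, and 7 in place of 6 from day 0 to day 2 in K19R). Depth limits Alb, and Apoa2 and Apoa4 at day 2, which rest on few counts.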
